A study of Homo sapiens with 2 samples.

Results

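The mevalonate arm of cholesterol synthesis was taken as 9 genes, ACAT2, HMGCS1, MVK, PMVK, MVD, IDI1, FDPS, GGPS1 and FDFT1, out of 23753 genes and unnamed transcripts that could be measured in HepG2 cells. A probe was assigned to a gene when the RefSeq transcript in its annotation belonged to that gene, a rule that uses no measured value. The 9 genes themselves, and the lists set beside them below, were chosen with earlier results of these data known. Each of the 9 genes had 1 probe, present as 1 spot on each array, and all 9 were well above background on both arrays, so no gene was lost to a filter on dim signal. HepG2 is an established human hepatoma line that retains many hepatocyte functions. In 1 sample the cells were treated with dimethyl sulfoxide (DMSO, 1‰), the solvent of the extract, and in the other with hawk tea extract (HTE), an ethanol extract of hawk tea leaves redissolved in DMSO, both for 24 h in medium with 10% fetal bovine serum, which itself supplies lipoprotein cholesterol. The sample labels give a dose of 200 μg per mL and the study's text gives a higher one for the arrays, so the dose is not settled here. RNA of each culture was labelled with Cy3 and hybridised to 1 Agilent SurePrint G3 human array, and both arrays lay on 1 slide read in 1 scan.

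In this pathway acetyl-CoA is built up to mevalonate, mevalonate is phosphorylated and decarboxylated to the isoprene unit, and isoprene units are joined to farnesyl diphosphate, from which the sterol arm, protein prenylation, dolichol and ubiquinone all branch. In hepatocytes the genes of the pathway are known to be switched on together by sterol regulatory element binding protein 2 (SREBP2), a transcription factor released from the endoplasmic reticulum when membrane cholesterol is low. SREBP2 binds sterol regulatory elements in promoters next to sites for nuclear factor Y (NF-Y), whose site holds the letters CCAAT, and for Sp1, whose site holds GGGCGG.

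All 9 genes had a higher signal in HTE-treated than in DMSO-treated cells after the arrays were scaled to their 75th percentile, and 4 of them, HMGCS1, MVD, IDI1 and GGPS1, were at least 2-fold higher. No gene of the arm was lower. The median log2 ratio of HTE over DMSO was 0.78. Over all 23753 genes and transcripts the median was 0, 45.7% were higher (the rest were lower or had no measurable difference), 5.25% were at least 2-fold higher and 3.03% were at least 2-fold lower. Among the 11772 genes with a mean signal at least that of GGPS1, the dimmest of the 9, 47.9% were higher and 2.45% at least 2-fold higher. There was 1 array per condition, so none of these differences could be tested, the spread between cultures is not known, and every error below is an error of the array alone. Treatment and array cannot be told apart. The RNA came from all cells of a culture, so that more transcript per cell and more cells making the transcript cannot be told apart either.

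To show what the promoters of the arm share, the sequence upstream of an annotated start is given for HMGCS1 and MVD, which had the highest ratios, and for FDPS, which stayed under 2-fold. The sequences are from RefSeq on GRCh38.p14 and run 5′ to 3′ on the strand of the gene up to the base before the start. HMGCS1 is at chr5:43313413-43313662 on the minus strand, MVD at chr16:88663092-88663341 on the minus strand and FDPS at chr1:155308655-155308865 on the plus strand, and only bases that lie in no annotated gene are shown. Capitals mark CCAAT, or ATTGG where it is read on the other strand.
HMGCS1: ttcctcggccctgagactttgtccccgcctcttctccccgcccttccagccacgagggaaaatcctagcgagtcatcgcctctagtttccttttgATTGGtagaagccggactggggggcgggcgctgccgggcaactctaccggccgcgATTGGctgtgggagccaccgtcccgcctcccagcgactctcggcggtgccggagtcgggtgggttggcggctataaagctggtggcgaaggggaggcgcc
MVD: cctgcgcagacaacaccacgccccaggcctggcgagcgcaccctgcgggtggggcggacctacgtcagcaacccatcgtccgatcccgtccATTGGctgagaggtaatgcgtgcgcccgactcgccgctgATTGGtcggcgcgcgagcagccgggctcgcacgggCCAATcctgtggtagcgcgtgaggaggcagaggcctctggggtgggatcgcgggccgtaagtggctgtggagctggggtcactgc
FDPS: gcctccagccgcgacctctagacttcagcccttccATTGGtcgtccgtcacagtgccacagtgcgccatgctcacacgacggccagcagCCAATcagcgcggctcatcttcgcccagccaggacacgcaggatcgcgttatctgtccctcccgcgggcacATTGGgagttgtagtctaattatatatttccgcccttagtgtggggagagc

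HMGCS1 has another annotated start downstream of the one used here, and the window around that start held CCAAT 0 times. The HMGCS1 sequence shown held it 2 times, both on the other strand, starting 155 and 100 bases before the start. The MVD sequence held it 3 times, starting 159, 120 and 85 bases before the start, and the FDPS sequence 3 times, starting 176, 122 and 51 bases before it. The motif was therefore present both in promoters of genes past 2-fold and in that of a gene under it. RefSeq promoter windows running from 250 bases before to 50 bases after a start were at hand for 7 of the 9 genes, with 12 windows in all, and ACAT2 and FDFT1 were not matched. On either strand CCAAT was found in 6 of the 7 genes, all but PMVK, against 39.7% of the 27305 genes in the promoter table, and GGGCGG in 7 of 7, against 48.3%. By window the counts were 7 of 12 for CCAAT (34.6% of all 35116 windows) and 11 of 12 for GGGCGG (44.95% of all windows), with 0 overlaps between the motifs. A gene with more windows has more chances to hold a motif. Windows of the same gene can also overlap, as they did for HMGCS1 and IDI1, so windows are not independent. The letters TCACNCCAC, a core of the sterol regulatory element, were in 0 of the 12 windows and in 1.13% of all windows, and the E-box CACGTG in 0 of 12 and 7.26%. Sterol regulatory elements vary in sequence, and the absence of these letters says only that this spelling is not in the window.

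The first reactions of the arm showed both extremes of the ratios. ACAT2, the cytosolic thiolase that joins acetyl-CoA into acetoacetyl-CoA, had a processed signal of 47996 on the DMSO array and 45241 on the HTE array. The 75th percentile of signals was 3570 on the HTE array and 4020 on the DMSO array, and relative to it the log2 signal of ACAT2 was 3.58 in DMSO and 3.66 in HTE. The log2 ratio was 0.086 ± 0.20 (SE from the error model of the scanner software, 1 spot per array), the lowest of the 9, within this SE and not distinguishable from 0 by it. Replicate spots of other probes in the signal range of the 9 genes varied less, with a median SD of 0.046 and a 95th percentile of 0.085. The sign of the ratio also depended on scaling, and without scaling it was -0.085. HMGCS1, the cytosolic synthase that makes HMG-CoA for the reductase step, had a signal of 8751 in DMSO and 21121 in HTE. Its scaled log2 signal was 1.12 in DMSO and 2.56 in HTE, which gave the highest ratio of the arm, a log2 ratio of 1.44 ± 0.20, or 2.72-fold. Of all genes and transcripts, 97.7% had a lower ratio than HMGCS1 and 61.7% a lower ratio than ACAT2. HMGCS1 and ACAT2 differed by 1.36 in log2 ratio with an error model SE of 0.29. No scaling by 1 factor per array can change this difference, but a correction that varies with brightness can. With quantile normalization the log2 ratios were 1.45 for HMGCS1 and 0.10 for ACAT2. A correction by the brightness of spike-in control probes was not tested.

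**Figure D1:**
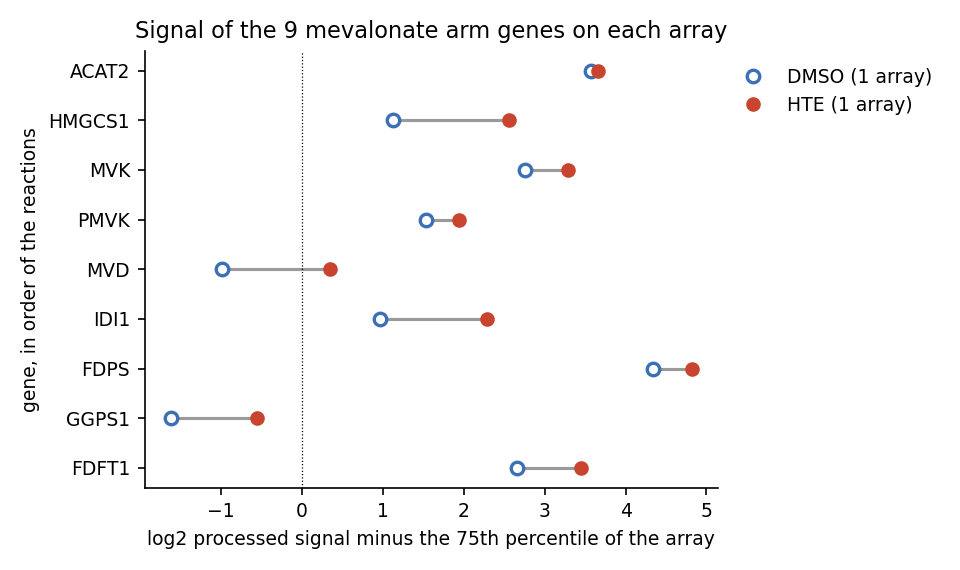
Log2 processed signal minus the 75th percentile of the array (x axis) for the 9 genes in reaction order (y axis), with DMSO as open and HTE as filled circles, 1 array each. Signals of different genes come from different probes, and only the distance within a row compares transcripts, which is widest for HMGCS1 (1.12 to 2.56) and smallest for ACAT2 (3.58 to 3.66).

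The kinases of the arm were only moderately higher. MVK, mevalonate kinase, adds the first phosphate, and its signal was 27268 in DMSO and 34953 in HTE. In log2 signal relative to the 75th percentile this was 2.76 and 3.29, a log2 ratio of 0.53 ± 0.20, or 1.44-fold. PMVK, phosphomevalonate kinase, adds the next phosphate and had a signal of 11676 in DMSO and 13670 in HTE. Its scaled log2 signal went from 1.54 to 1.94, a log2 ratio of 0.40 ± 0.20, or 1.32-fold. MVK and PMVK differed in log2 ratio by less than the error of that difference.

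The enzymes that make and isomerise the isoprene unit were past 2-fold. MVD, the decarboxylase that yields isopentenyl diphosphate, had a signal of 2027 in DMSO and 4543 in HTE. Its scaled log2 signal was -0.99 in DMSO and 0.35 in HTE, so that the spot passed from below to above the 75th percentile of its array, with a log2 ratio of 1.34 ± 0.20, or 2.52-fold. IDI1, the isomerase that turns isopentenyl diphosphate into dimethylallyl diphosphate, had a signal of 7837 in DMSO and 17363 in HTE. With a scaled log2 signal of 0.96 in DMSO and 2.28 in HTE, its log2 ratio was 1.32 ± 0.20, or 2.49-fold. MVD and IDI1, which act one after the other, had ratios only 0.017 apart. IDI2, the neighbouring paralog of IDI1 that is known mainly from muscle, was dim on both arrays, below what the scanner software calls well above background, and could not be compared with IDI1.

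The prenyl synthases differed among themselves. FDPS, which builds geranyl and farnesyl diphosphate and is the target of nitrogen-containing bisphosphonates, was the brightest of the 9 spots, with a signal of 81483 in DMSO and 100572 in HTE. The scaled log2 signal was 4.34 and 4.82, the log2 ratio 0.47 ± 0.20, or 1.39-fold. No non-control spot on either array was flagged as saturated. Of these spots, 98.9% on the DMSO array and 99.4% on the HTE array were dimmer than FDPS. The flag does not show whether signal still rose in proportion at this brightness, which was not tested. GGPS1, which extends farnesyl to geranylgeranyl diphosphate for protein prenylation and thus leads away from cholesterol, was the dimmest, with a signal of 1305 in DMSO and 2436 in HTE. Its scaled log2 signal was -1.62 and -0.55, and the log2 ratio was 1.07 ± 0.20, or 2.10-fold, which is closer to the 2-fold line than the error of the array. With normexp background correction it was 0.96, with scaling to the median 0.99 and with no scaling 0.90, in each case under 2-fold. FDFT1, squalene synthase, joins farnesyl diphosphate to squalene, the first product committed to sterols. It had a signal of 25460 in DMSO and 38872 in HTE, a scaled log2 signal of 2.66 and 3.44, and a log2 ratio of 0.78 ± 0.20, or 1.72-fold. FDFT1 thus held the middle of the 9 genes.

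**Figure D2:**
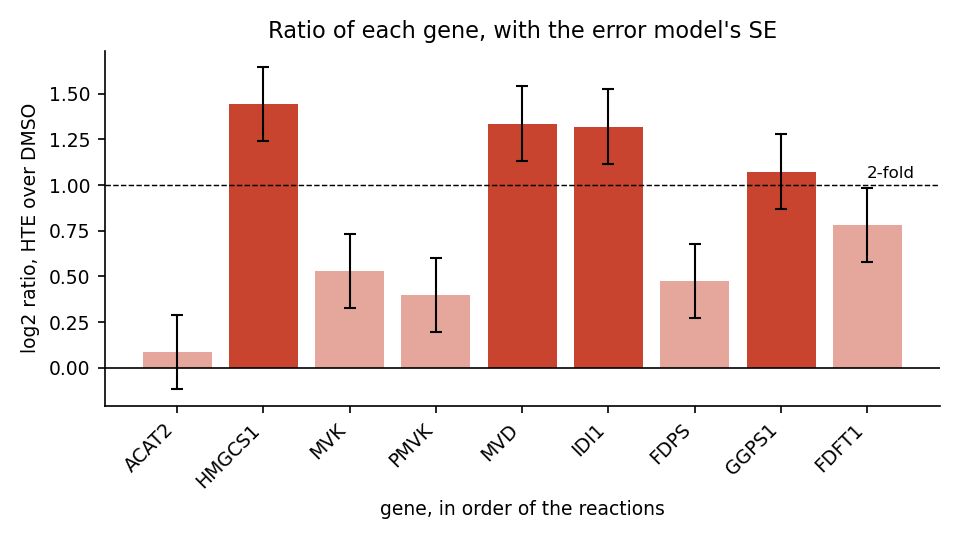
Log2 ratio of HTE over DMSO (y axis) for the 9 genes in reaction order (x axis), with bars from 0 and whiskers of 1 SE from the error model of the scanner software, 1 array per condition. HMGCS1, MVD, IDI1 and GGPS1 (dark) reach the dashed 2-fold line, and only the whisker of ACAT2 crosses 0.

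In order of log2 ratio the genes ran HMGCS1, MVD, IDI1, GGPS1, FDFT1, MVK, FDPS, PMVK and ACAT2. Of the 8 gaps between neighbours in this order, 2 were larger than the SE that the error model gives for a difference, the gap between GGPS1 and FDFT1 (0.290 with an SE of 0.289) and that between PMVK and ACAT2 (0.313 with an SE of 0.289). The error model is dominated by a fixed share of the signal, and replicate spots varied less. Among 518 probes with at least 5 usable replicate spots and a mean signal within the range of the 9 genes, the log2 ratio had a median SD of 0.046 between spots, with a 95th percentile of 0.085. Against the SD of a difference that follows from it, 0.065, 6 of the 8 gaps were larger, and the 2 that were not were MVD to IDI1 and MVK to FDPS. Different probes of the same gene agreed less well than spots of 1 probe, with a median SD of the log2 ratio of 0.16 over 3759 genes, and since each gene of the arm had only 1 probe this spread could not be measured for them.

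The 4 genes past 2-fold had the lowest signals of the arm in DMSO-treated cells. Their spots ranged from 1305 to 8751 on the DMSO array, whereas those of the other 5 genes ranged from 11676 to 81483, with no overlap. The DMSO signal also enters the ratio by which these groups were formed. The separation depended on GGPS1, the dimmest gene, counting as past 2-fold. With normexp (0.96), scaling to the median (0.99) or no scaling (0.90) it was under 2-fold, and the DMSO ranges then overlapped. On the HTE array the ranges, 2436 to 21121 and 13670 to 100572, did overlap. Across the 9 genes the mean log2 signal of both arrays and the log2 ratio had a Pearson's r of -0.64 and a Spearman's rho of -0.58. Without FDPS and GGPS1, the 2 genes farthest from the median signal, r was -0.69 over 7 genes. The 12 genes of the sterol arm gave an r of -0.67 and a rho of -0.66. Over the 11468 genes of the same signal range that were measured on both arrays, r was -0.00025 and rho 0.011. These are correlations across genes on the same pair of arrays, genes are not independent replicates, a spot's signal reflects its probe as well as its transcript, and the DMSO signal enters both quantities. Among the 11772 genes at least as bright as GGPS1, 5638 were higher and 6134 lower. A probe response that shrank rises and falls alike at high signal would leave r over such genes near 0. That r therefore cannot show whether bright probes respond less. Of the spike-in control probes well above background, described below, the brightest also differed least between the arrays. Whether probe response has a part in the relation was not tested.

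**Figure D3:**
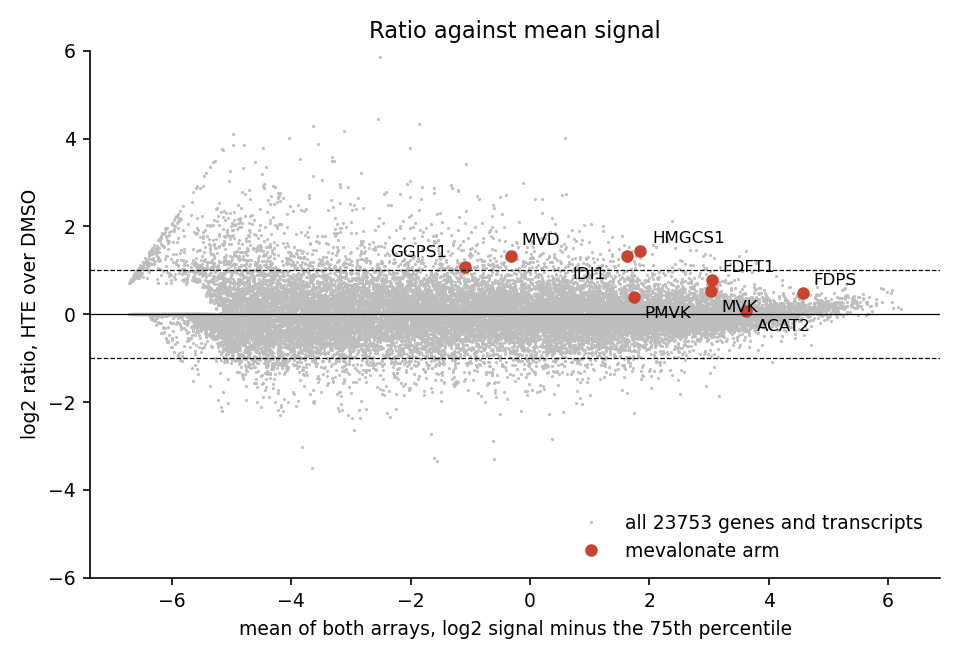
Log2 ratio of HTE over DMSO (y axis) against the mean log2 signal of both arrays relative to the 75th percentile (x axis) for 23753 genes and transcripts (grey, those well above background on only 1 array at their lower bound, or at 0 where the bound is under 1-fold) and the 9 genes of the arm (red). Dashed lines mark 2-fold, and the 9 genes lie above 0 in the brighter part of the plot, with PMVK, FDPS, MVK and ACAT2 nearest to it.

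The ratios were also set against those of neighbouring spots, as a check on uneven hybridisation. The median log2 ratio of the usable spots within 5 rows and columns of each spot lay between -0.11 (MVK) and 0.16 (MVD). After it was subtracted, all 9 genes were still higher and the same 4 genes were at least 2-fold higher, with log2 ratios of 1.53 for HMGCS1, 1.29 for IDI1, 1.18 for MVD and 1.09 for GGPS1.

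The sign of the ratios depended on how the arrays were scaled. The HTE array had fewer spots well above background (56.6% against 60.6%) but brighter E1A spike-in RNA, a control that the manufacturer supplies for addition before labelling. How much was added to each sample is not given in the sources used here. Over the 8 spike-in probes well above background on both arrays, the log2 difference of HTE over DMSO ran from 0.45 to 1.57, with a median of 1.20, so the spike-ins did not give 1 common factor. The difference was smallest for the brightest spike-in probes, at 0.46, 0.45 and 0.92, and lay between 1.15 and 1.57 for the dimmer ones. Which difference applies to a gene of a given brightness was not tested. Without scaling, the median log2 ratio over all genes was -0.16 and ACAT2 turned to -0.085, while the other 8 genes stayed higher. Scaling to the median of the spike-in signals gave a median over all genes of -1.58 and put all 9 genes below 0, from -0.15 for HMGCS1 to -1.502 for ACAT2, of which MVK, PMVK, FDPS and ACAT2 were at least 2-fold lower. Scaling to the median difference of the 8 probes, an alternative added after the data had been seen, gave a median of -1.36 and left HMGCS1 at 0.069 and the other 8 genes below 0. Of all genes past 2-fold, 63.4% were higher with the 75th percentile, 42.2% without scaling, and 0.413% and 0.602% with the 2 spike-in scalings. A scaling by 1 factor per array moves every gene measured on both arrays alike. Genes set to no change at their bound need not follow it, and the median of all genes moved slightly less. The median of the 9 genes lay 0.78 above it with the 75th percentile and 0.77 above it with median, no or spike-in scaling. With the 75th percentile but no filter on dim probes, the median of all genes was 0.21. The median of the 9 genes then lay only 0.57 above it. Normexp background correction and quantile normalization can shift genes unequally. With each of them all 9 genes lay above the median of all genes, the median of the 9 genes by 0.75 and 0.81. Whether the bulk of transcripts changed in amount was not tested.

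**Figure D4:**
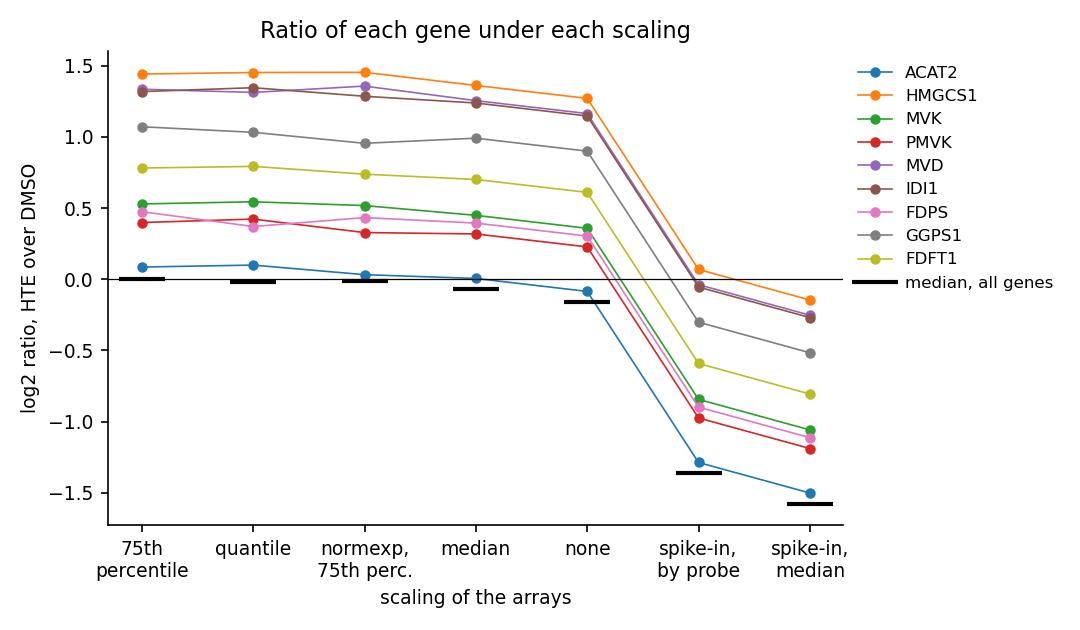
Log2 ratio of HTE over DMSO (y axis) of the 9 genes (coloured points, joined by gene) under 7 ways of scaling the arrays (x axis), with the median of all genes as a black dash, 1 array per condition. Scalings by 1 factor per array move the 9 genes alike and the dash nearly as much. With the spike-in settings only HMGCS1 in 1 of them (0.069) is above 0.

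Other genes of the pathway were taken as 3 lists. The first held 7 genes that supply acetyl-CoA, carry the reductase step or are mitochondrial or paralogous counterparts of the arm. Of the 5 that were measured all were higher, with a median log2 ratio of 0.72, and 1 was at least 2-fold higher. This was ACSS2, the acetyl-CoA synthetase of cytosol and nucleus and a known SREBP target, with a log2 signal relative to the 75th percentile of -0.60 in DMSO and 1.45 in HTE and a log2 ratio of 2.06, above every gene of the mevalonate arm. The lowest was ACAT1, the mitochondrial thiolase of ketone body metabolism, with 3.11 in DMSO, 3.21 in HTE and a log2 ratio of 0.10. By the brightest probe of ACAT1 and the only probe of ACAT2, the mitochondrial and cytosolic thiolases were thus both close to 0. Dimmer probes of ACAT1 had log2 ratios of 0.054 and 0.41, so the probes of this gene disagreed.

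In the sterol arm, the reactions from squalene to cholesterol, 11 of 12 genes were higher and 6 at least 2-fold higher, with a median log2 ratio of 0.86. The 6 were MSMO1, the C4-methyl sterol oxidase (1.66), SC5D, the sterol C5-desaturase (1.29), LSS, lanosterol synthase (1.20), HSD17B7, a 3-keto-sterol reductase (1.17), TM7SF2, a sterol C14-reductase (1.13), and DHCR7, the last reductase of the pathway to cholesterol through 7-dehydrocholesterol (1.00). A dimmer probe of LSS, for another transcript, had a log2 ratio of 2.22, so the probes of this gene disagreed. DHCR7 stood at the 2-fold line itself, and without scaling 3 of the 6 remained past it. LBR, which shares the reductase activity of TM7SF2 and also anchors chromatin at the nuclear envelope, was lower, with a log2 ratio of -0.30.

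The last list held enzymes that use isoprenoids for other ends, such as prenyltransferases, dolichol synthesis and ubiquinone synthesis. It also held enzymes that process proteins already prenylated. Its genes lay on both sides of 0. Of 14 measured genes 6 were higher and 8 lower, none by 2-fold, with a median log2 ratio of -0.066. Without scaling 4 were higher, and with the spike-in scalings 0 were higher and 14 and 13 were at least 2-fold lower. By the brightest probe of each gene the highest was FNTA (0.47) and the lowest FNTB (-0.53), the alpha and beta subunits of protein farnesyltransferase. The alpha subunit is shared with the enzyme that attaches geranylgeranyl groups. The subunits of 1 enzyme thus had ratios of opposite sign, each from 1 spot per array. A dimmer probe of PDSS1 gave -0.55. A dimmer probe of PDSS2 gave -0.15 against 0.21 for its brightest, so the sign of this gene depended on the probe. GGPS1 (1.07) lay above all 14 genes of this list, including those that consume its product. As medians beside the 0 of all genes, the lists stood at 0.78 for the mevalonate arm, 0.86 for the sterol arm and -0.066 for the isoprenoid users. Differences between the lists were not tested.

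**Figure D5:**
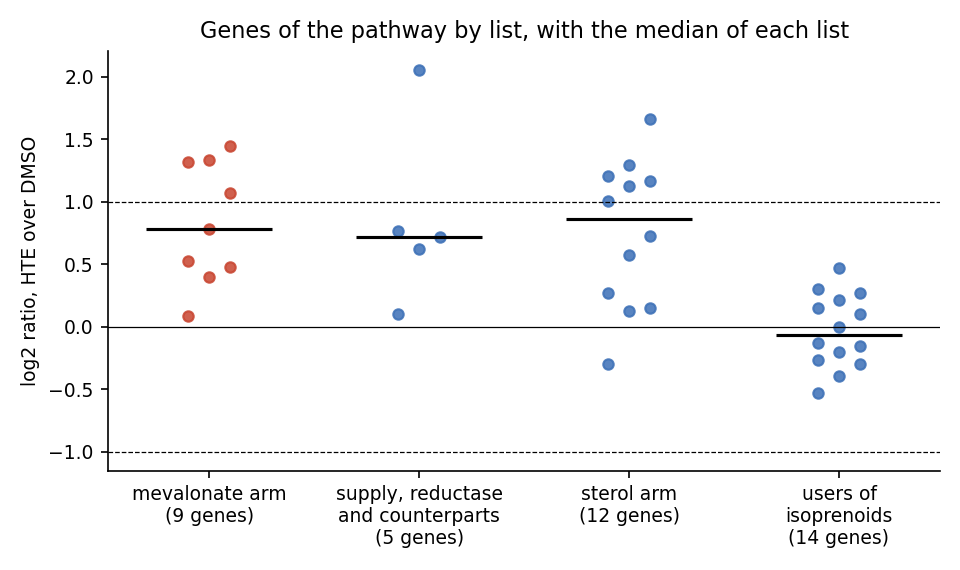
Log2 ratio of HTE over DMSO (y axis) of each measured gene (points) in the mevalonate arm and in 3 lists of related genes (x axis), with the median of each list as a black line and dashed lines at 2-fold, 1 array per condition. The mevalonate and sterol arms have medians of 0.78 and 0.86, and the users of isoprenoids lie on both sides of 0 with a median of -0.066.

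The label of the cells was checked against markers. All 8 hepatocyte and HepG2 markers, among them ALB, AFP and TTR, were well above background on both arrays, with summed signals of 736900 in DMSO and 728044 in HTE. Of 5 markers of other cells, 2 (PTPRC of leukocytes and PECAM1 of endothelium) had a probe well above background on both arrays, with signals of 2351 and 2297 for PTPRC and 804 and 203 for PECAM1, whereas CD3E, COL1A2 and DCN were not well above background. Their part in the ratios of the arm was not tested.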

How the data were processed

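Total RNA of 1 DMSO-treated and 1 HTE-treated HepG2 culture was profiled on 1-colour Agilent arrays. The authors deposited scanner intensity values, which Agilent Feature Extraction (11.5.1.1 in the file headers, 10.7 in the submitters' processing notes) had background-subtracted and detrended but not scaled between arrays. The flags (other columns) deposited with them mark control spots, outliers and spots well above background.

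From these, log2 of the processed signal minus the 75th percentile of the non-control spots was computed per array. Outlier spots (440 on the DMSO and 459 on the HTE array) were left out, and replicate spots were averaged. Probes were kept if a share of 0.5 or more of their spots passed the software's flag for well above background in DMSO or HTE. Where only 1 array passed, the ratio is a lower bound, and bounds under 1-fold were set to no change. RefSeq transcripts in the GRCh38.p14 gene table named 28174 of 50599 probes. The array design names another build, so only promoter coordinates are given. For genes with several probes the one with the highest mean signal was used, and 2-fold was the limit for a change, the cutoff of the study's methods. The genes named are the 9 of the arm and, in each other list, those past 2-fold and the highest and lowest. PDSS1 and PDSS2 are named as well, for the spread of their probes. An item withheld from the text is not reported here. The members and lists were chosen with earlier results of these data known. With 1 array per condition no test was run, and the number of arrays limits the precision. The error of a ratio is that of Feature Extraction's error model, propagated from both spots.

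The alternatives were normexp background correction (offset 50, on the median signal, since no mean signal was at hand), quantile normalization, scaling to the median, to spike-ins or not at all, other filters, other probes, neighbouring spots and other cutoffs. The code was tested on simulated data with known shifts. R 4.3.3 with limma 3.58.1, Python 3.11.15, numpy 2.4.6, pandas 2.3.3, scipy 1.17.1 and matplotlib 3.10.9 were used.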

Additional observations from a re-analysis of the deposited data

How the results depend on the processing

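No paired analysis was possible because each condition had a single array, and no array could be left out. Where an alternative does not itself show why a value moved, the cause was not tested. With spike-in scaling the log2 ratios turned negative for all 9 genes: ACAT2 -1.5022, HMGCS1 -0.1458, MVK -1.0587, PMVK -1.1894, MVD -0.2525, IDI1 -0.2692, FDPS -1.1132, GGPS1 -0.5164 and FDFT1 -0.8064, with a median of -0.8064, 0 genes higher, 0 at least 2-fold higher and 4 at least 2-fold lower. With spike-in scaling by probe, chosen after seeing the data, they were ACAT2 -1.2876, MVK -0.8442, PMVK -0.9749, MVD -0.0379, IDI1 -0.0547, FDPS -0.8987, GGPS1 -0.3018 and FDFT1 -0.5919, with a median of -0.5919, 1 gene higher (HMGCS1), 0 at least 2-fold higher and 1 at least 2-fold lower. Under these scalings the median of the acetyl-CoA and reductase list was -0.8698 and -0.6553, that of the sterol arm -0.7239 and -0.5094, and that of the isoprenoid users -1.6542 and -1.4397. These shifts follow from the spike-in factor, which moves every gene measured on both arrays alike. Without scaling ACAT2 was -0.0853 and the median of the 9 genes 0.6105, and with scaling to the median it was 0.7015. The number of the 9 genes at least 2-fold higher was 3 with normexp, with scaling to the median and with no scaling, 5 at a 1.5-fold and 0 at a 3-fold cutoff, and 4 under quantile normalization, the filters on dim and outlier spots, the mean over probes and subtraction of neighbouring spots. Without a filter on dim probes 8 of the 9 genes, rather than 9, lay above the median of all genes. The second brightest probe gave no value, since each of the 9 genes has 1 probe, and it gave a sterol arm median of 1.7794 over 2 genes.

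Over all genes, the number at least 2-fold higher, 1248, became 825 with normexp, 86 with spike-in scaling, 112 with spike-in scaling by probe, 2390 with no filter on dim probes, 701 with probes of NM transcripts, 225 with the second brightest probe, 2953 at 1.5-fold and 422 at 3-fold. The number at least 2-fold lower, 720, became 468 with normexp, 1209 without scaling, 20747 with spike-in scaling, 18505 by probe, 1869 with no filter, 1321 with a dim probe's own value, 397 with NM transcripts, 113 with the second brightest probe, 2504 at 1.5-fold and 129 at 3-fold. The NM and second-probe settings tested fewer genes (14537 and 4546 against 23753).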
